A study of Homo sapiens with 5 samples.

Results

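The HOX genes of clusters A to D were followed across 5 human pancreatic lines. Members were all genes whose probe sets carried a single symbol made of HOXA, HOXB, HOXC or HOXD and a number, with antisense RNAs left out and, for each gene, the probe set of highest mean kept. That gave 28 of 19775 measured genes, read by 44 probe sets, of which 1 was a HOXA gene (HOXA2), 10 were HOXB genes, 9 HOXC genes and 8 HOXD genes. Other HOX genes were not analysed here. The lines were PANC1, HPAF1, SU86.86 and L3.6, which come from pancreatic carcinomas, and HPDE, which the field uses as an immortalised duct epithelial line although its label reads pancreatic cancer line, as do those of the other 4. No treatment was applied and culture followed the supplier's protocol. Each line was measured on 1 Affymetrix array, so a single value has no replicate error, and a line stands for 1 culture and not for a class of tumours.

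HOX proteins are transcription factors that bind DNA through a homeodomain and give cells their position along the body axis. Their genes lie in clusters on different chromosomes, and within a cluster low-numbered genes are used in anterior and high-numbered genes in posterior parts of the embryo. Adult epithelia and tumour lines often keep a part of such a pattern. HOX proteins bind DNA with cofactors of the PBX and MEIS families, retinoic acid switches on low-numbered members, and polycomb proteins keep unused members silent.

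Levels are log2 of the deposited intensity plus a constant of 71.1, the 25th percentile of all values. The level filter was set at 7.72, or 140 intensity units, which is the median over all probe sets. Array medians lay between 137.4 and 143.2 intensity units. Levels of different genes come from different probes, so differences are read within a gene. Folds are differences on this scale, where 2-fold is 1 unit, and those of dim genes are understated. All 4 epithelial markers were above the filter in every line. The adhesion protein CDH1, however, read 8.61 for PANC1, 9.92 for L3.6 and between 12.73 and 13.34 elsewhere, and EPCAM was lowest in PANC1 (10.80). The other markers, KRT8 and KRT18, were lowest in HPDE (11.29 and 13.23), against 11.98 and 13.77 in PANC1. Of 7 measured duct markers 4 lay above the filter in PANC1, 7 in SU86.86 and 6 in each of HPAF1, L3.6 and HPDE. In PANC1 the keratins KRT7 (7.51) and KRT19 (9.84) were at their lowest and the factor FOXA2 (10.73) at its highest, while the duct factor SOX9 was at 9.38 or more in the carcinoma lines, against 7.92 in HPDE. The duct channel CFTR lay between 7.41 and 7.74 in the 5 lines. Reaching the filter is a weak sign of expression, since 10 of 20 measured markers of fibroblasts, leukocytes, endothelium, acinar and endocrine cells also reached it in at least 1 line. Of these 10, 2 varied by 2-fold or more. COL1A2, a fibroblast collagen, was at 9.91 in L3.6 and at 7.59 or less elsewhere, and the leukocyte marker CD14 was at 8.72 in HPAF1 and at 7.71 or less elsewhere. Another fibroblast collagen, COL1A1, lay between 10.05 and 10.78 in the 5 lines.

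Of the 28 HOX genes, 20 reached the level filter in at least 1 line (71.4%, against 75.3% of all genes). In 10 of these the lowest and highest lines were also 2-fold or more apart (35.7%, against 32.0% of all genes). The 10 were 7 HOXB genes (HOXB2 to HOXB7 and HOXB9) and 3 HOXC genes (HOXC6, HOXC9 and HOXC10). No HOXD gene was among them, nor was HOXA2. Both shares lay near those of all genes.

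By line, PANC1 had 18 HOX genes above the filter, HPAF1 14, SU86.86 15, L3.6 18 and HPDE 10, where the shares of all genes were 65.4%, 66.7%, 65.3%, 66.9% and 65.2%. The 10 of HPDE were HOXB2, HOXB3, HOXB4, HOXB5, HOXC5, HOXC8, HOXC11, HOXC13, HOXD1 and HOXD11. HPDE also had the lowest level of the 5 lines in 15 of the 28 genes and the highest in 1, HOXB8 (against 23.6% and 19.7% of all genes). PANC1 was lowest in 1 and highest in 6 (against 16.4% and 19.8%), HPAF1 lowest in 4 and highest in 9 (against 20.6% and 24.1%). SU86.86 was lowest in 6 and highest in 7 (against 25.8% and 14.5%), L3.6 lowest in 2 and highest in 5 (against 13.6% and 21.9%). Many of these orders concern genes that hardly varied, such as HOXB8, HOXD9 and HOXD13. On the other HOXB8 set HPDE was the lowest line (6.66).

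**Figure D1:**
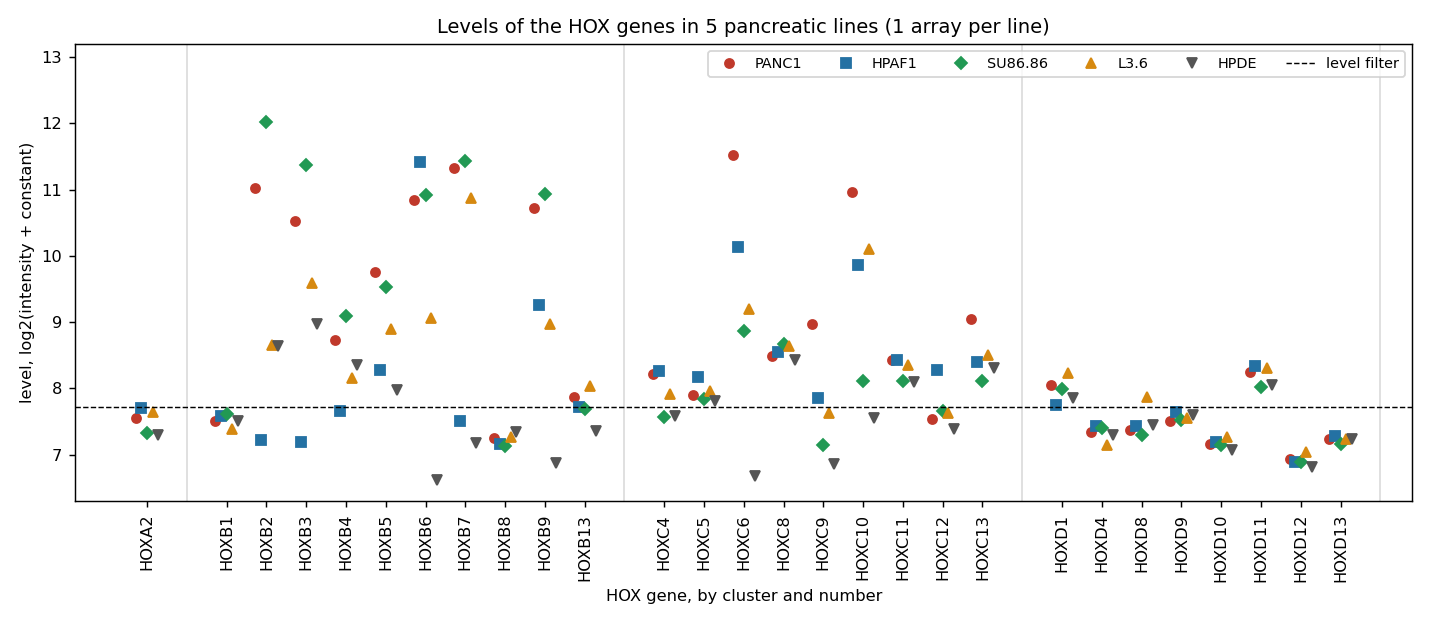
Levels of the 28 HOX genes (y axis, log2 of intensity plus constant) by cluster and number (x axis), with 1 point per line and the level filter at 7.72 as a dashed line. The points spread widely for HOXB2, HOXB3, HOXB6, HOXB7, HOXB9, HOXC6 and HOXC10 and lie close together for HOXA2 and all 8 HOXD genes, and heights can be compared within a gene only.

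On the probe sets kept, the anterior HOXB genes HOXB2 and HOXB3, which pattern the hindbrain in the embryo, were high in PANC1 and SU86.86 and below the filter in HPAF1. For HOXB2, PANC1 read 11.03, HPAF1 7.22, SU86.86 12.02, L3.6 8.65 and HPDE 8.64, as intensities 2016, 77.8, 4070, 331.3 and 326.6. For HOXB3, PANC1 read 10.53, HPAF1 7.20, SU86.86 11.38, L3.6 9.60 and HPDE 8.97, as intensities 1405, 75.9, 2594, 704.5 and 430.7. Both genes had the same order of lines on these sets, with L3.6 and HPDE in the middle. The other HOXB3 set lay between 8.80 and 9.23, with HPAF1 at 8.99. HOXB1, the most anterior member of the cluster, lay below the filter in every line, between 7.39 and 7.62.

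HOXB4, known as a factor of blood stem cell self-renewal, and HOXB5, a factor of foregut and lung development, varied less. For HOXB4, PANC1 read 8.74, HPAF1 7.66, SU86.86 9.09, L3.6 8.15 and HPDE 8.35. For HOXB5, PANC1 read 9.76, HPAF1 8.29, SU86.86 9.53, L3.6 8.91 and HPDE 7.98. PANC1 and SU86.86 were again the highest in both, while the lowest line was HPAF1 for HOXB4 and HPDE for HOXB5.

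HOXB6 and HOXB7, neighbours in the cluster, parted in HPAF1 on the probe sets kept. For HOXB6, PANC1 read 10.85, HPAF1 11.42, SU86.86 10.92, L3.6 9.06 and HPDE 6.61, as intensities 1776, 2676, 1864, 464.0 and 26.9. For HOXB7, often described as high in carcinomas, PANC1 read 11.33, HPAF1 7.50, SU86.86 11.43, L3.6 10.87 and HPDE 7.18, as intensities 2502, 110.3, 2691, 1799 and 73.8. On these sets HPAF1 had the highest HOXB6 level of the 5 lines but lay below the filter for HOXB7, and HPDE lay below it for both. The other HOXB6 set put SU86.86 highest (8.18) and HPAF1 at 7.87. Another HOXB7 set put HPAF1 at 8.43, above the filter. HOXB8 lay below the filter in all 5 lines on the probe set kept, between 7.13 and 7.34.

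The posterior HOXB gene HOXB9 was above the filter in each carcinoma line and below it in HPDE. For HOXB9, PANC1 read 10.72, HPAF1 9.26, SU86.86 10.94, L3.6 8.97 and HPDE 6.87, as intensities 1618, 543.7, 1891, 430.6 and 45.8. HOXB13, a prostate and hindgut factor that lies apart from the rest of its cluster, was highest in L3.6 (8.04) and lowest in HPDE (7.36) on the probe set kept. On the probe sets kept, HPDE was thus above the filter at HOXB2, HOXB3, HOXB4 and HOXB5 and below it at HOXB6 to HOXB9. On the same sets PANC1 and SU86.86 were above it at each of these genes but HOXB8. The other HOXB5 set, however, read 7.26 in HPDE, below the filter. The other HOXB8 set read 7.81 in PANC1 and 7.88 in SU86.86, above it.

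The HOXC genes that varied were highest in PANC1 and lowest in HPDE. For HOXC6, a central gene studied in prostate and breast cancer, PANC1 read 11.53, HPAF1 10.13, SU86.86 8.86, L3.6 9.20 and HPDE 6.68, as intensities 2887, 1050, 394.8, 517.5 and 31.3. For HOXC9, PANC1 read 8.98, HPAF1 7.85, SU86.86 7.15, L3.6 7.63 and HPDE 6.87. For HOXC10, a posterior gene of the lumbar spinal cord and hindlimb, PANC1 read 10.96, HPAF1 9.86, SU86.86 8.12, L3.6 10.10 and HPDE 7.56, as intensities 1926, 858.3, 206.7, 1028 and 117.6. SU86.86, highest of the 5 lines for HOXB2, HOXB3, HOXB4, HOXB7 and HOXB9, was the lowest of the carcinoma lines for these 3 HOXC genes.

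The other HOXC genes had a level above the filter in at least 1 line and a range under 2-fold on this log2 scale. As intensities, without the constant, HOXC12 ran from 97.3 in HPDE to 240.4 in HPAF1, more than 2-fold. HOXC13 ran from 206.8 in SU86.86 to 456.3 in PANC1, also more than 2-fold. HOXC13, a regulator of hair keratins, was at 9.04 in PANC1 and between 8.12 and 8.51 in the other lines. HOXC12 was at 8.28 in HPAF1 and no higher than 7.66 in any other line. For HOXC8, a gene of the thoracic spinal cord, PANC1 read 8.49, HPAF1 8.56, SU86.86 8.67, L3.6 8.65 and HPDE 8.43. HOXC4, HOXC5 and HOXC11 had ranges of 0.70, 0.37 and 0.34.

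In the RefSeq gene table (GRCh38.p14) HOXC4, HOXC5 and HOXC6 begin at the same position, and HOXB4 lies within the span of HOXB3, so signal in these groups is not surely that of 1 gene. RefSeq promoter windows, from 250 bases before to 50 after the listed start, were matched for 11 of the 28 members, with HOXC4 and HOXC5 counted separately. None of the 10 HOX genes that passed the filter with a range of 2-fold or more was among the 11. The shares below thus describe members that varied little. The window of HOXC4 is identical to that of HOXC5, at chr12:54016638-54016937 on the plus strand, and is shown because HOXC6, which begins there too, had a range of 4.85, against 0.70 for HOXC4 and 0.37 for HOXC5. The windows of HOXD1 (chr2:176188418-176188717, plus strand) and HOXD4 (chr2:176151300-176151599, plus strand) are shown because they hold the most and the fewest CpG sites among the 11, while both genes were nearly flat across lines. Capitals mark CpG sites.
HOXC4 and HOXC5: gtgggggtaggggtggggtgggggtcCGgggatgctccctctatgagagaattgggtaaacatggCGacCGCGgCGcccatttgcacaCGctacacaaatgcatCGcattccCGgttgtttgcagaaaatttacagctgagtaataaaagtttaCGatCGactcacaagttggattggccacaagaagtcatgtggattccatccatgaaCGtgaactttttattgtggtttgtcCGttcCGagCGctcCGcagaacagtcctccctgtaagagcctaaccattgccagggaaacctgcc
HOXD1: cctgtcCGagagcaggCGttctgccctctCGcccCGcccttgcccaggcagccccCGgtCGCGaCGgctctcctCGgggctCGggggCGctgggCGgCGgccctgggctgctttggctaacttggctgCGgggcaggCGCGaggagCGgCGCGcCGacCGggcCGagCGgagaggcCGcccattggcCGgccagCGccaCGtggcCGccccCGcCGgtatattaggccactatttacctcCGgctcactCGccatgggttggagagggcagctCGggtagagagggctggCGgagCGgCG
HOXD4: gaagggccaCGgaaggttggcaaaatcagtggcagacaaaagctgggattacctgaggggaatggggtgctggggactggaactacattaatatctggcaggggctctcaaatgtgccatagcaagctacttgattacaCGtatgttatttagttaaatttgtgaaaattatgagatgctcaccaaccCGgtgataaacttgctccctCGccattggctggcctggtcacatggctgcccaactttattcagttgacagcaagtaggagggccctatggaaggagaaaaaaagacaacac
The shared HOXC window holds 15 CpG sites, that of HOXD1 36 and that of HOXD4 4, while the median was 19 over the 11 windows and 14 over 35114 promoters of the same length. Of 3 motifs searched on both strands, the TATA box TATAAA was found in the window of HOXD13 (9.09% of the 11, against 11.53% of all promoters). The PBX-HOX composite TGATTNAT was found in HOXA2 and HOXD11 (18.18%, against 2.82%), and the nuclear receptor motif AGGTCA in 0 of the 11 (against 13.83%). A match describes the letters of the window and not binding.

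The HOXD cluster was flat on the probe sets kept, as its 8 measured genes had ranges between 0.12 and 0.58. HOXD4, HOXD9, HOXD10, HOXD12 and HOXD13, the last a gene of digits and genitalia, lay below the filter in each line. HOXD1 (7.76 to 8.23) and HOXD11 (8.02 to 8.34) lay above it in each line, although a second HOXD1 probe set read 6.83 to 7.12, and HOXD8 was at 7.88 in L3.6 and between 7.29 and 7.44 elsewhere. For HOXA2, a hindbrain and branchial arch gene, PANC1 read 7.55, HPAF1 7.70, SU86.86 7.33, L3.6 7.65 and HPDE 7.30, all below the filter.

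The mean of the 4 carcinoma lines was 2-fold or more above HPDE in 8 HOX genes and below it in 0 of the 28, against 4.19% and 4.90% of all 19775 genes. The 8 were HOXB2, HOXB5, HOXB6, HOXB7, HOXB9, HOXC6, HOXC9 and HOXC10, and without PANC1 the count was 5. With a line or probe sets left out, here and below, shares of all genes 2-fold apart were not computed. The HOXB2 difference of 1.09 was 0.66 without PANC1, 1.93 without HPAF1 and 0.33 without SU86.86. The median difference of the 28 was 0.22, against 0.03 over all genes.

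Standard errors and p-values come from limma, a linear model fitted over all 14894 genes past the level filter, in which the variance is estimated from the 4 carcinoma lines and HPDE is assumed to vary as they do. HOXB6 averaged 10.56 in the carcinoma lines, against 6.61 in HPDE, a difference of 3.95 (SE 0.94, limma adjusted p = 0.43, unadjusted p = 0.00961). HOXC6 averaged 9.93, against 6.68 in HPDE, a difference of 3.25 (SE 1.08, limma adjusted p = 0.563). HOXB9 averaged 9.97, against 6.87 in HPDE, a difference of 3.10 (SE 0.91, limma adjusted p = 0.502). In these 3 genes each carcinoma line lay 2-fold or more above HPDE on the probe sets kept. On the other HOXB9 set HPAF1 (7.89) and L3.6 (7.91) lay less than 2-fold above HPDE (6.93). The other HOXB6 set had a range of 0.80 over the 5 lines, and HOXC6 had 1 set. HOXB7 had as large a mean difference, 3.10, with an SE of 1.68 (limma adjusted p = 0.738), and HPAF1 was 0.32 above HPDE there. Of the 20 HOX genes tested 0 passed the adjusted threshold of 0.05, which 0.0269% of all genes did, while 3 had an unadjusted p under 0.05 (HOXB6, HOXB9 and HOXC6), against 8.23% of all genes tested. After adjustment the HOX differences were not separable from the spread between lines.

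Against HPDE 1 line at a time, with 1 array on each side and the same HPDE array in all 4 differences, the carcinoma lines gave different selections of genes. PANC1 had 9 HOX genes 2-fold or more higher than HPDE and 0 lower, against 6.39% and 6.99% of all genes. SU86.86 had 7 higher and 0 lower, against 6.37% and 5.83%. L3.6 had 5 higher and 0 lower, against 4.94% and 6.49%. HPAF1 had members on both sides, 4 higher (HOXB6, HOXB9, HOXC6 and HOXC10) and 2 lower (HOXB2 and HOXB3), against 5.86% and 7.02%. HOXB2 minus its HPDE level was 2.39 for PANC1, -1.42 for HPAF1, 3.38 for SU86.86 and 0.02 for L3.6. HOXB6 minus its HPDE level was 4.24 for PANC1, 4.81 for HPAF1, 4.30 for SU86.86 and 2.45 for L3.6.

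**Figure D2:**
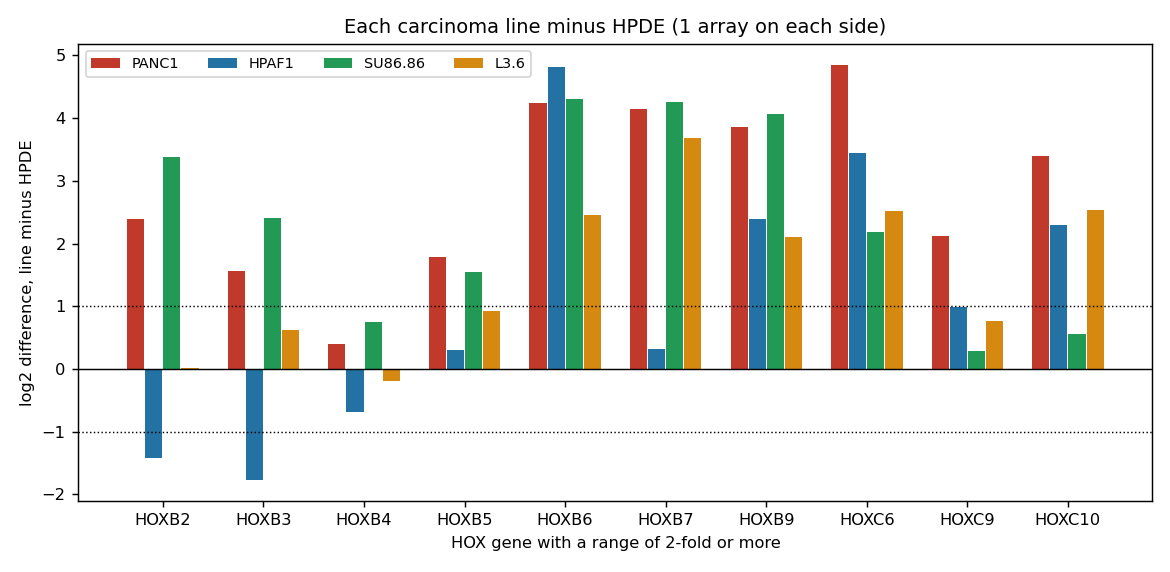
Log2 difference of each carcinoma line minus HPDE (y axis) for the 10 HOX genes with a range of 2-fold or more (x axis), 1 bar per line, with dotted lines at 2-fold. HPAF1 bars lie below 0 for HOXB2 (-1.42), HOXB3 (-1.77) and HOXB4 (-0.69) and near 0 for HOXB7 (0.32), while all 4 bars exceed 2-fold for HOXB6, HOXB9 and HOXC6.

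Set against the mean of the other 4 lines, PANC1 had 9 HOX genes higher by 2-fold or more and 0 lower, against 4.05% and 4.17% of all genes. HOXC6 was at 11.53 in PANC1, against a mean of 8.72 elsewhere, and so differed by 2.81 (SE 1.31, limma adjusted p = 0.996). HOXC9 differed by 1.61 (SE 0.44, limma adjusted p = 0.66, unadjusted p = 0.0157) and HOXC13 by 0.71 (SE 0.24, limma adjusted p = 0.786, unadjusted p = 0.0317). Without HPDE 6 were higher, and the HOXB6 difference of 1.35 came to 0.38. The HOXB3 difference of 1.24 came to 0.54 without HPAF1. None of the 9 passed after adjustment, and the median difference over the 28 was 0.13, against 0.00 over all genes.

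HPAF1 had HOXB6 and HOXC6 higher and HOXB2, HOXB3 and HOXB7 lower by 2-fold or more, 2 and 3 of the 28, against 5.24% and 4.75% of all genes. Without HPDE the split was 1 higher and 5 lower, and the HOXB6 and HOXC6 differences of 2.06 and 1.06 came to 1.15 and 0.27. Without SU86.86 it was 1 and 3. HOXB3 was at 7.20 in HPAF1, against a mean of 10.12 elsewhere, and so differed by -2.92 (SE 0.96, limma adjusted p = 0.413, unadjusted p = 0.0312). HOXB2 differed by -2.86 (SE 1.54, limma adjusted p = 0.663) and HOXC12 by 0.72 (SE 0.20, limma adjusted p = 0.323, unadjusted p = 0.0162).

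SU86.86 had 5 HOX genes higher (HOXB2, HOXB3, HOXB6, HOXB7 and HOXB9) and 1 lower (HOXC10) by that measure, against 3.98% and 1.95% of all genes. Without HPDE the split was 4 and 3, and the HOXB6 difference of 1.43 came to 0.47. HOXB2 was at 12.02 in SU86.86, against a mean of 8.88 elsewhere, and so differed by 3.13 (SE 1.44, limma adjusted p = 0.998). L3.6 had 1 higher, HOXB7 by 1.51, and 1 lower, HOXB2 by -1.07, against 2.26% and 3.55% of all genes. Its split depended on the lines it was set against, with 2 higher and 0 lower without PANC1, 1 and 0 without SU86.86, and 0 and 3 without HPDE. By limma 0 HOX genes passed the adjusted threshold for PANC1, HPAF1, SU86.86 or L3.6, where 0.0269%, 0.242%, 0.00% and 0.00% of all genes did. At an unadjusted p under 0.05 PANC1 had 2 HOX genes, HPAF1 2, SU86.86 0 and L3.6 0, against 5.56%, 10.1%, 3.74% and 3.37% of all genes.

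Compared as pairs, PANC1 and SU86.86 were at least 2-fold apart in 3 of the 28 HOX genes, the fewest of the 10 pairs (HOXC6, HOXC9 and HOXC10, each higher in PANC1, 10.7% against 9.34% of all genes). PANC1 and HPAF1 were apart in 9 (32.1%, against 14.8% of all genes), as were PANC1 and HPDE (32.1%, against 13.4%). HPAF1 and SU86.86 were apart in 8 (28.6%, against 12.1%), SU86.86 and HPDE in 7 (against 12.2%) and HPAF1 and HPDE in 6 (21.4%, against 12.9%). PANC1 and L3.6 were apart in 5 (17.9%, against 8.61%), as were SU86.86 and L3.6 (against 8.02%) and L3.6 and HPDE (against 11.4%). HPAF1 and L3.6 were apart in 4, namely HOXB2, HOXB3, HOXB6 and HOXB7 (14.3%, against 12.7%).

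The mesenchymal genes CDH2, a cadherin, and VIM, a filament protein, also differed between lines. For CDH2, PANC1 read 10.61, HPAF1 7.10, SU86.86 11.53, L3.6 7.45 and HPDE 6.80. For VIM, PANC1 read 14.74, HPAF1 9.52, SU86.86 12.71, L3.6 13.84 and HPDE 8.02. CDH2 was high in PANC1 and SU86.86, the lines highest for HOXB2 and HOXB3, whereas VIM was higher in L3.6 than in SU86.86. Epithelial markers set PANC1 apart from SU86.86, with CDH1 at 8.61 in PANC1 and 12.73 in SU86.86 and KRT7 at 7.51 in PANC1 and 13.62 in SU86.86. The part of these cell states in the HOX values was not tested.

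**Figure D3:**
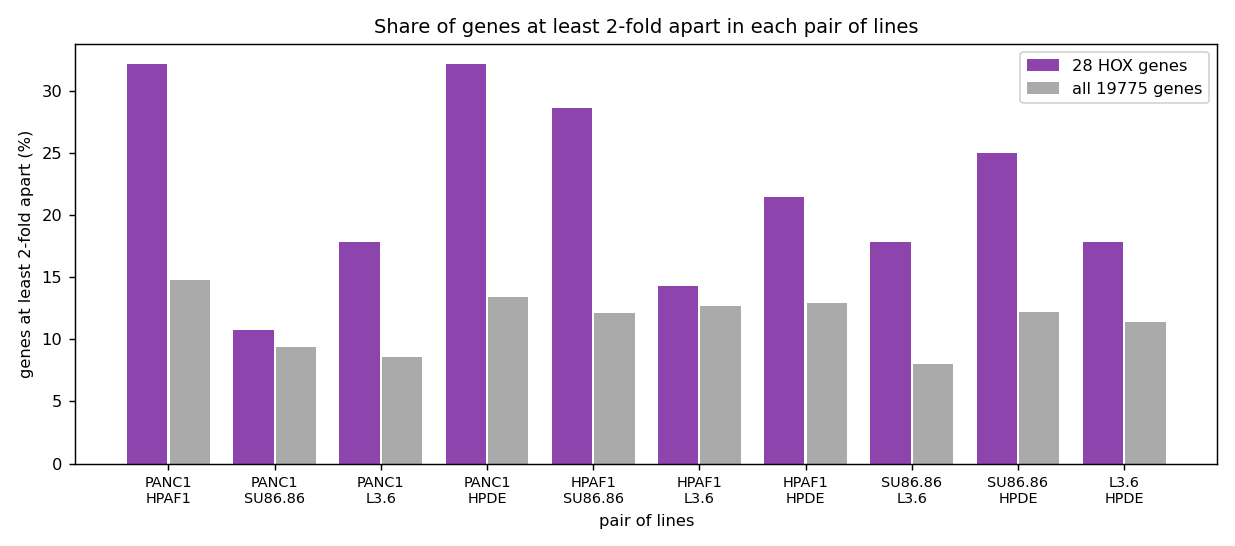
Share of genes at least 2-fold apart in either direction (y axis, percent) for each of the 10 pairs of lines (x axis), with the 28 HOX genes beside all genes. The HOX share is 10.7% for PANC1 and SU86.86 and 32.1% for PANC1 with HPAF1 or with HPDE.

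Different probe sets of a gene did not always read alike, and 13 of the 28 genes had several. For HOXB7 all 3 probe sets had the same order of lines, with ranges of 4.25, 4.55 and 3.58. The third, however, put HPAF1 at 8.43, above the filter and more than 2-fold above HPDE (7.24). The other probe sets of HOXB5 and HOXB9 also put PANC1 and SU86.86 above the rest, with ranges of 2.85 and 1.99, but that of HOXB5 read 7.54 in HPAF1 and 7.26 in HPDE, below the filter in both. By contrast the other HOXB6 probe set lay between 7.38 in HPDE and 8.18 in SU86.86, so the large HOXB6 difference was seen on 1 of 2 probe sets. The other HOXB3 probe set lay between 8.80 and 9.23 in the 5 lines and at 8.99 in HPAF1, so the low HOXB3 level of HPAF1 was also seen on 1 of 2. The other HOXB8 probe set read 7.81 in PANC1 and 7.88 in SU86.86, just above the filter, and 6.66 to 6.80 in the rest. The other HOXB13 probe set was highest in PANC1 (7.90) and lowest in HPAF1 (6.98), unlike the set kept.

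The probe sets kept for HOXB5, HOXB6, HOXB7 and HOXC6 carry a suffix that the maker gives to sets matching several transcripts or sequences. Without all such sets HOXB5, HOXB7, HOXC6 and HOXC13 had no value, the carcinoma mean of HOXB6 exceeded HPDE by 0.59, and the carcinoma mean was 2-fold or more above HPDE in 4 of 24 HOX genes. The corresponding counts against HPDE were 5 for PANC1, 3 for SU86.86 and 2 for L3.6, and HPAF1 had 2 higher and 2 lower. The shares of all genes without these sets were not computed, so the counts have no background beside them.

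**Figure D4:**
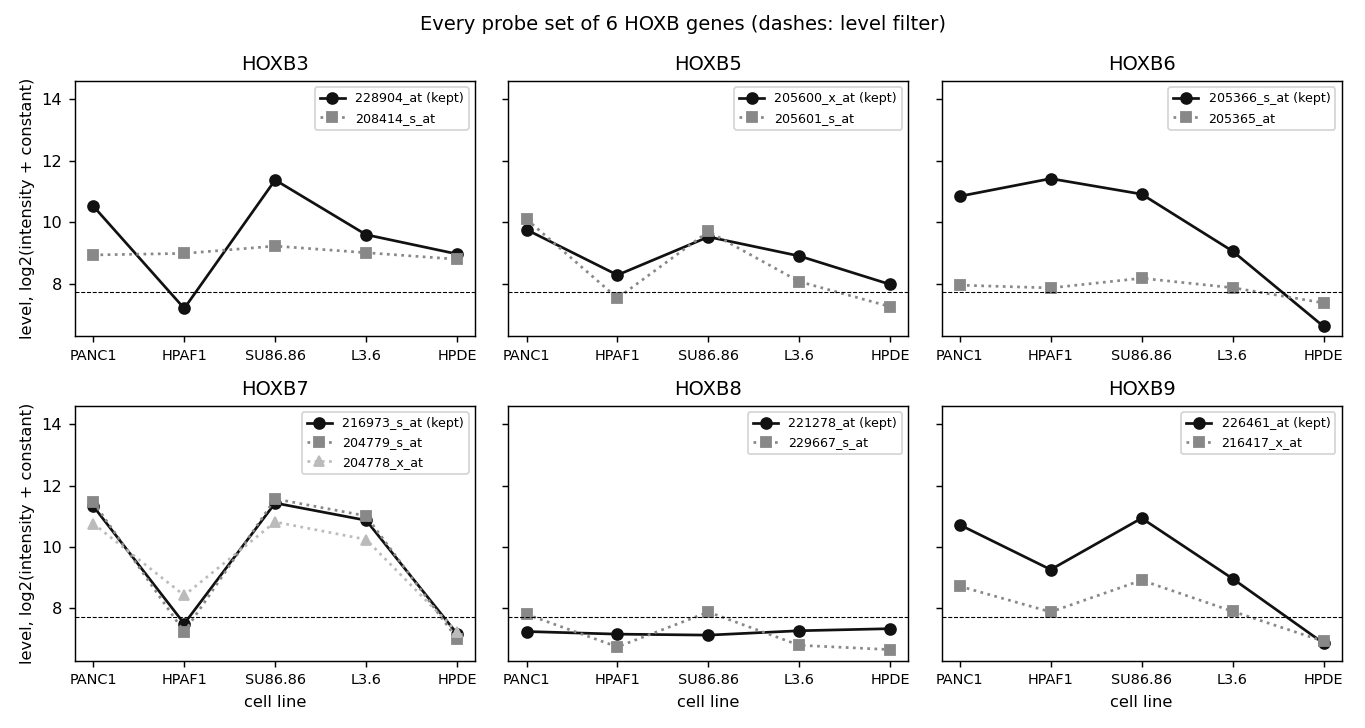
Levels (y axis, log2 of intensity plus constant) on every probe set of 6 HOXB genes in the 5 lines (x axis), the kept set as a solid line and the others dotted. The sets of HOXB5, HOXB7 and HOXB9 all put PANC1 and SU86.86 highest, whereas the second sets of HOXB3 (8.80 to 9.23) and HOXB6 (7.38 to 8.18) are nearly flat.

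Among the cofactors that bind DNA with HOX proteins, 8 of 9 listed genes were measured and 0 passed limma in any comparison. Of all genes tested, 0.242% passed in HPAF1 and 0.0269% or less in the other comparisons, so calls in short lists would be rare. For PBX3, PANC1 read 10.30, HPAF1 7.69, SU86.86 8.97, L3.6 8.69 and HPDE 8.82. For MEIS2, PANC1 read 9.24, HPAF1 8.19, SU86.86 9.05, L3.6 10.53 and HPDE 7.51. For MEIS1, PANC1 read 6.96, HPAF1 7.55, SU86.86 8.26, L3.6 8.24 and HPDE 9.02. PBX3 was thus below the filter in HPAF1, MEIS2 in HPDE and MEIS1 in PANC1 and HPAF1, while PBX2 varied by 0.69.

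Of 15 measured genes of retinoic acid supply and response, 1 passed limma, in HPAF1 (against 0.242% of all genes tested). In HPAF1 4 were 2-fold or more above the mean of the other lines and 0 below, against 5.24% and 4.75% of all genes. Their median difference in HPAF1 was 0.38, against 0.01 over all genes. ALDH1A1, which makes retinoic acid, was at 10.33 in HPAF1 and between 6.86 and 7.02, below the filter, elsewhere, a difference of 3.39 (limma adjusted p = 0.016), a call that was lost whichever other line was left out (limma adjusted p between 0.0729 and 0.145). For the related ALDH1A3, PANC1 read 9.24, HPAF1 13.16, SU86.86 12.70, L3.6 12.58 and HPDE 10.77. RDH10, which makes the precursor of retinoic acid, was at 11.64 in HPAF1 and no higher than 10.04 elsewhere, and the retinoic acid carrier CRABP2 was at 8.04 in L3.6 and between 10.86 and 11.92 elsewhere. DHRS3, which turns retinal back to retinol and so limits retinoic acid, was at 10.11 in HPAF1, 9.73 in L3.6 and 8.81 or less elsewhere, and was named after its values were seen. HPAF1 thus held the highest levels of makers of retinoic acid and of an enzyme that limits it.

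Chromatin regulators of the HOX clusters gave 0 calls by limma among 13 measured trithorax genes and 23 measured polycomb genes. Of all genes tested, 0.242% or less passed in each comparison. KDM6A, a demethylase that removes a polycomb mark, lay between 8.21 and 8.52 in the carcinoma lines, against 9.71 in HPDE. The methyltransferase KMT2C lay between 8.21 and 8.69 in the carcinoma lines, against 9.45 in HPDE. JARID2, an accessory protein of a polycomb complex, lay between 8.27 and 8.89 in the carcinoma lines, against 10.17 in HPDE, and PHF19, another, between 10.42 and 11.66 in the carcinoma lines, against 9.11 in HPDE. HPDE was thus the highest line for KDM6A, KMT2C and JARID2 and the lowest for PHF19, as it was for 19.7% and 23.6% of all genes.

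In HPAF1 5 polycomb genes were 2-fold or more below the mean of the other lines and 0 above, against 4.75% and 5.24% of all genes, with a median of -0.47, against 0.01 over all genes. CBX2, a polycomb subunit that reads histone methylation, was at 7.39 in HPAF1 and highest in L3.6 (9.24). PCGF5, a subunit of another polycomb complex, was at 8.30 in HPAF1, nearly as low in PANC1 (8.42) and highest in HPDE (10.21). WDR5, a core subunit of trithorax methyltransferases, was at 8.32 in HPAF1 and at 9.56 or more elsewhere, and PAXIP1, a partner of such enzymes, was highest in PANC1 (10.14).

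Of the HOX antisense and long noncoding RNAs 11 of 17 were measured and 0 passed limma (against 0.242% or less of all genes tested). For HOXB-AS3, transcribed from the HOXB cluster, PANC1 read 8.01, HPAF1 7.98, SU86.86 8.78, L3.6 7.95 and HPDE 7.55. HOXA-AS2 was at 8.54 in HPAF1 and no higher than 7.68 elsewhere, and HOTTIP and HAGLR each varied by 0.39. HOTAIR, transcribed from the HOXC cluster, was highest in PANC1 (7.59) and below the filter in each line. Of the 6 caudal and ParaHox genes, related homeobox genes outside the clusters, 0 passed (against the same share). CDX2, an intestinal factor, was at 8.57 in HPAF1 and below the filter elsewhere, and GSX2, GSX1 and CDX1 varied by 0.64, 0.46 and 0.45.

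Of the genes that flank the clusters 15 of 17 were measured and 0 passed limma (against 0.242% or less of all genes tested). SKAP1, beside the HOXB cluster, was at 8.75 in SU86.86 and below the filter elsewhere. SKAP2 and HIBADH, near the HOXA cluster, had their highest levels in HPAF1 (12.14 and 11.66), where they exceeded the mean of the other lines by 1.83 and 1.67 (limma adjusted p = 0.187 and 0.264). CBX5, near the HOXC cluster, was at 9.56 in HPAF1, 9.03 in L3.6 and at 10.31 or more elsewhere.

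**Figure D5:**
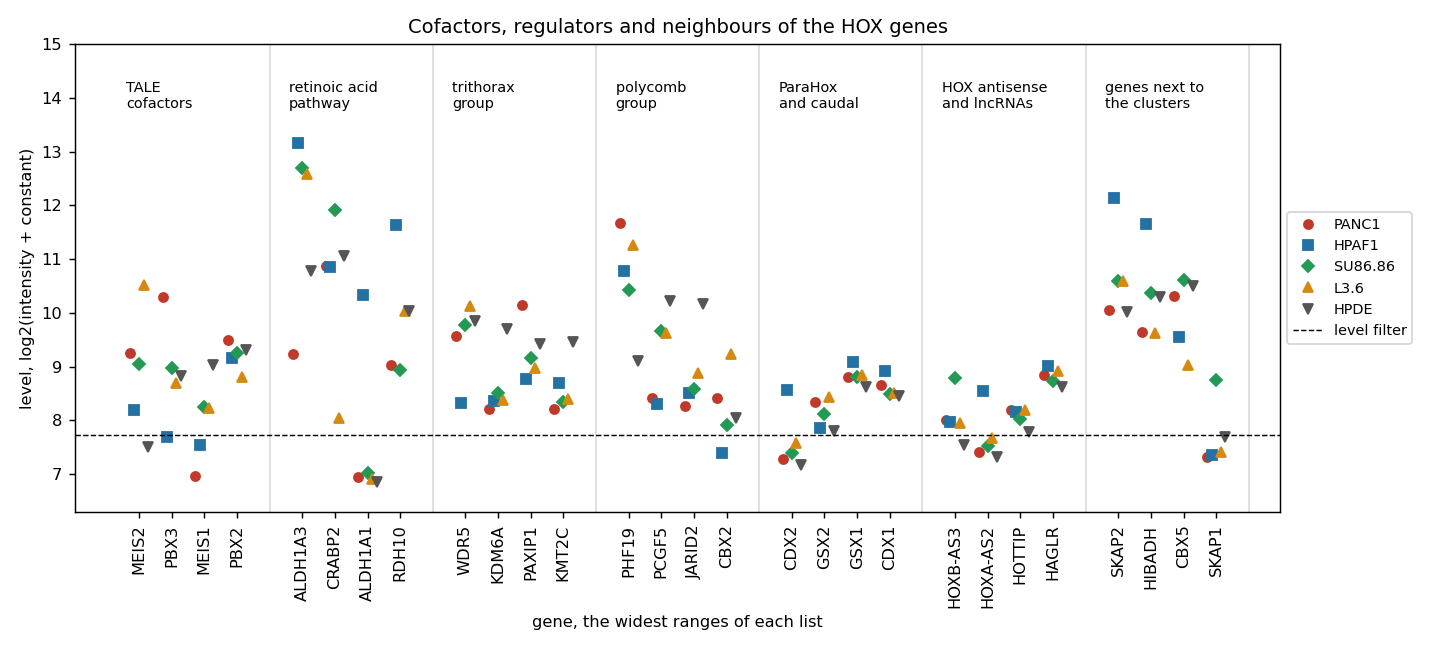
Levels (y axis, log2 of intensity plus constant) in the 5 lines of up to 4 genes in each list of cofactors, regulators and neighbours (x axis), those of widest range among genes past the level filter, with the level filter dashed. ALDH1A1 is above the filter in HPAF1 alone (10.33), and PBX3 and CBX2 have their lowest points in HPAF1 (7.69 and 7.39).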

How the data were processed

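Total RNA of 5 lines was labelled with an Affymetrix one-cycle kit, per the labels' protocols. The authors deposited linear intensity values for 54675 probe sets per array, with their summarisation and scaling not given in the sources used here. Log2 array medians differed by 0.06, so no further normalization was applied. The number of arrays limits the precision.

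The 62 control probe sets were left out. In the platform annotation, which can be old, 41091 probe sets had 1 gene symbol, 1801 had several and 11721 were unlisted, and 41037 were matched to current RefSeq symbols. The log2(intensity + 71.1) scale understates fold changes of dim genes. Genes whose highest level reached the filter were tested with limma 3.58.1 in R 4.3.3 (two-sided, Benjamini-Hochberg over 14894 genes), each carcinoma line against the mean of the other 4 lines and the carcinoma mean against HPDE. With 3 residual degrees of freedom the lone line is assumed to vary as the others, and p-values measure spread between lines, not cultures. Fold counts took all 28 members. The fitting code was run on simulated data with the same spread for every gene, which does not test the calls made here.

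Named were members with a range of 2-fold or more, the 3 of highest level in each line, and the 4 genes of widest range among those past the filter in each other list, with level ranks across genes used for naming only. HOXC12, HOXC13, DHRS3 and HOTAIR were named after their values were seen, and marker genes were picked to describe the lines. Members and lists were chosen with earlier results of these data known. Alternatives were another constant, filter, probe set rule, normalization and variance trend, and each line left out.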

Additional observations from a re-analysis of the deposited data

Results flagged for a closer look

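For 2 HOX genes, 2 carcinoma lines differed from the same HPDE array by 2-fold or more in opposite directions, with 1 array on each side and the difference between the lines not tested. HOXB2 minus its HPDE level was 3.38 for SU86.86 and -1.42 for HPAF1. HOXB3 minus its HPDE level was 2.41 for SU86.86 and -1.77 for HPAF1, on 1 of its 2 probe sets.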

How the results depend on the processing

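No HOX gene passed limma in any of the 65 fits run, and the lowest adjusted p of a HOX gene was 0.113. For 35 differences (HOX genes at 2-fold or more, and HOXC12, HOXC13, ALDH1A1, SKAP2 and HIBADH) the sign was the same in all 405 recomputed values, but 32 of these values, for 15 of the differences, moved by over 1.5 times, and HOXB6 in HPAF1 came to 0.02 without ambiguous sets. Part of the 405 could not differ, since another level filter or a variance trend changes the test and not the difference. Likewise the mean of all probe sets left genes with 1 set unchanged. After leaving out sets with an ambiguous suffix, which left 24 members, the counts of HOX genes 2-fold apart were 5 in PANC1, 2 in HPAF1 and 1 in L3.6 against the other lines, 4 for the carcinoma mean, and 5, 3 and 2 in PANC1, SU86.86 and L3.6 minus HPDE, and limma called 0 genes in PANC1 and 1 for the carcinoma mean. With no added constant 8 HOX genes were apart in L3.6 minus HPDE, and limma called 2 genes in PANC1 and 0 for the carcinoma mean. As reported, limma called 4 genes for PANC1, 36 for HPAF1, 0 for SU86.86 and 4 for the carcinoma mean. With no level filter limma called 8 in PANC1 and 79 in HPAF1, with the mean of all probe sets 1 for the carcinoma mean, and with a variance trend 10 in PANC1, 104 in HPAF1 and 2 in SU86.86. With each line left out in turn, limma called 0 genes (lowest 0, highest 0) in every comparison, with fewer residual degrees of freedom, and the counts of HOX genes 2-fold apart were 6 to 9 for PANC1, 4 to 6 for HPAF1, 6 to 8 for SU86.86, 1 to 3 for L3.6 and 5 to 9 for the carcinoma mean. Apart from the fewer members and lines, the cause of these shifts was not tested. Shares of all genes 2-fold apart were not computed in these settings. No paired analysis was possible because each line has 1 array. Signal near background limits what can be said of members below the filter.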
